A study of Mus musculus with 40 samples.

Results

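The 9 genes described here are known markers of cells that line or sit in the brain ventricles. Whether their reads came from those cells was not tested. Of the genes, 6 mark multiciliated ependymal cells (Foxj1, Dnaic2, Ccdc153, Tmem212, Dynlrb2 and Rsph1) and 3 mark choroid plexus epithelium (Ttr, Kl and Folr1). They were chosen by gene symbol among the 24060 rows of a table of read counts, with their levels and their differences between fractions already known, so their own levels and fold changes are given as a description with no test. The table held 40 mouse striatal libraries, 4 in each of 10 groups. In the RiboTag experiments an AAV that carries HA-tagged Rpl22, a ribosomal protein, was injected into the dorsal striatum, and ribosome-bound RNA was pulled down with an antibody against HA (IP) beside RNA of the cleared lysate (input).

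The control cohort (C57/BL6NTac, label Control) and the syn cohort (C57/BL6NTac, label WT, IP libraries titled with Syn) each held 4 IP and 4 input libraries, with AAV given at 6 weeks of age. The SAPAP3 cohort held IP and input libraries of WT (C57/BL6J) and SAPAP3 KO (C57/BL6J-Dlgap3 KO) mice, with AAV given at 4.5 months. Bulk striatal RNA of WT and Sapap3KO animals, both labelled C57/BL6NTac, was measured without a RiboTag. The tag was driven either by gfaABC1D, a promoter used for astrocytes, or by hSyn1, a promoter used for neurons, and the labels of the control and SAPAP3 cohorts name neither. All 10 astrocyte markers were higher in the IP than in the input of those cohorts, with median log2 fold changes of 2.97 in the control cohort, 2.24 in SAPAP3 WT and 2.33 in SAPAP3 KO, against -0.64 in the syn cohort. Dlgap3, the gene disrupted in the KO, lay at 49.8 to 87.2 CPM (counts scaled to the library total) in KO IP and at 154 to 212 CPM in WT IP, and the genotypes did not overlap in input or in bulk either. The label JS9195 is on a WT and a KO bulk library, and the syn input and IP libraries carry different animal numbers. Library totals ran from 23438112 to 84109800 counts.

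Ependymal cells form the ciliated sheet over the ventricle wall, which borders the medial face of the striatum, and beat cerebrospinal fluid along it. Their motile cilia are built from outer and inner dynein arms, radial spokes and a central pair of microtubules, under transcription factors such as Foxj1 and the Rfx family. The choroid plexus hangs inside the ventricles and secretes the fluid, and Ttr, the carrier of thyroxine and retinol, is its most characteristic transcript. In mixed tissue such as these samples, fewer cells of a type and less RNA per cell cannot be told apart.

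Promoter sequence is shown for the ependymal members whose start region held the motif described here, since ciliary genes are known targets of Rfx proteins. RefSeq start regions of GRCm38.p6 matched 5 of the 9 genes (Dnaic2, Ccdc153, Tmem212, Dynlrb2 and Kl). The 250 bases before each start were searched on both strands for GTTGCC, the core of the X box that Rfx proteins bind, and for GTAAACA, a forkhead site. Capitals mark the match.
Dnaic2, chr11:114727376-114727405, plus strand: cccggccagggttgctaGGCAACtggtaaa
Ccdc153, chr9:44240427-44240676, plus strand: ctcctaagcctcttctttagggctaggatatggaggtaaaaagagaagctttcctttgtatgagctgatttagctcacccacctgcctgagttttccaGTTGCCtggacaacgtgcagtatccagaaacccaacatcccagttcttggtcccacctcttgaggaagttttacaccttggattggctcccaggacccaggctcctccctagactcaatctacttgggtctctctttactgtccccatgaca
Dynlrb2, chr8:116504765-116505014, plus strand: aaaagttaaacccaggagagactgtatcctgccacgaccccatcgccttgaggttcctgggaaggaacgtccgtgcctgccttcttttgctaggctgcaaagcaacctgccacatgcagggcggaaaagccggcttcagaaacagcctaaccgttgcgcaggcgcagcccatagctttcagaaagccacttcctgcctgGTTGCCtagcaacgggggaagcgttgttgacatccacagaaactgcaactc
The match began 26 bases before the start in Dnaic2, where only 30 bases are given because the region overlaps an exon of another transcript model and the 13 bases nearest the start are not shown, 152 bases before it in Ccdc153 and 51 bases before it in Dynlrb2. This core was present in 3 of 4 ependymal members, in 20 of 62 start regions (32.3%) of the 51 other ependymal genes that matched, and in 10.4% of all 32851 start regions. Tmem212 and Kl held neither exact string in the window, and variants of the motifs were not searched. The forkhead site was found in none of the 5 members, in 6.45% of the start regions of the other ependymal genes and in 3.17% of all.

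All 6 ependymal members were detected in each of the 40 libraries. Levels between genes were compared per exon length, as FPKM computed from the counts. Over the 24 input and bulk libraries the mean FPKM was 5.42 for Foxj1, 2.23 for Rsph1, 2.16 for Tmem212, 2.11 for Dynlrb2, 2.03 for Ccdc153 and 0.693 for Dnaic2, whose length of 6073 bases includes a long first exon of 1 transcript model. Within the choroid plexus genes it was 1.34 for Ttr, 0.784 for Kl and 0.240 for Folr1. Foxj1 was thus the most abundant of the 9 per length, and Folr1 the least.

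Foxj1 (chr11:116330704-116335499), the forkhead factor required for motile cilia, was measured in control input at 15.5, 15.2, 18.8 and 21.1 CPM and in control IP at 76.0, 43.0, 80.5 and 67.3 CPM. Every IP library was above every input library. In SAPAP3 WT its level was 21.9, 16.5, 14.03 and 17.1 CPM in input and 71.2, 72.3, 71.6 and 98.5 CPM in IP. In SAPAP3 KO it was 13.5, 14.7, 14.2 and 15.7 CPM in input and 56.4, 77.8, 92.5 and 92.8 CPM in IP. The fractions were again fully apart in both genotypes. In the syn cohort the input values of 19.0, 18.4, 11.3 and 16.9 CPM and the IP values of 16.7, 20.5, 9.93 and 15.9 CPM overlapped. Bulk libraries held 13.1, 13.04, 11.9 and 8.68 CPM in WT and 9.30, 12.4, 10.5 and 15.9 CPM in KO, the lowest pair of group means. By group mean the order began with KO IP at 79.9 ± 17.2 (SD, n = 4), WT IP at 78.4 ± 13.4 and control IP at 66.7 ± 16.7 CPM, neighbours that lay within 1 SD of each other, and the other 7 groups followed between 11.7 and 17.6 CPM.

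**Figure D1:**
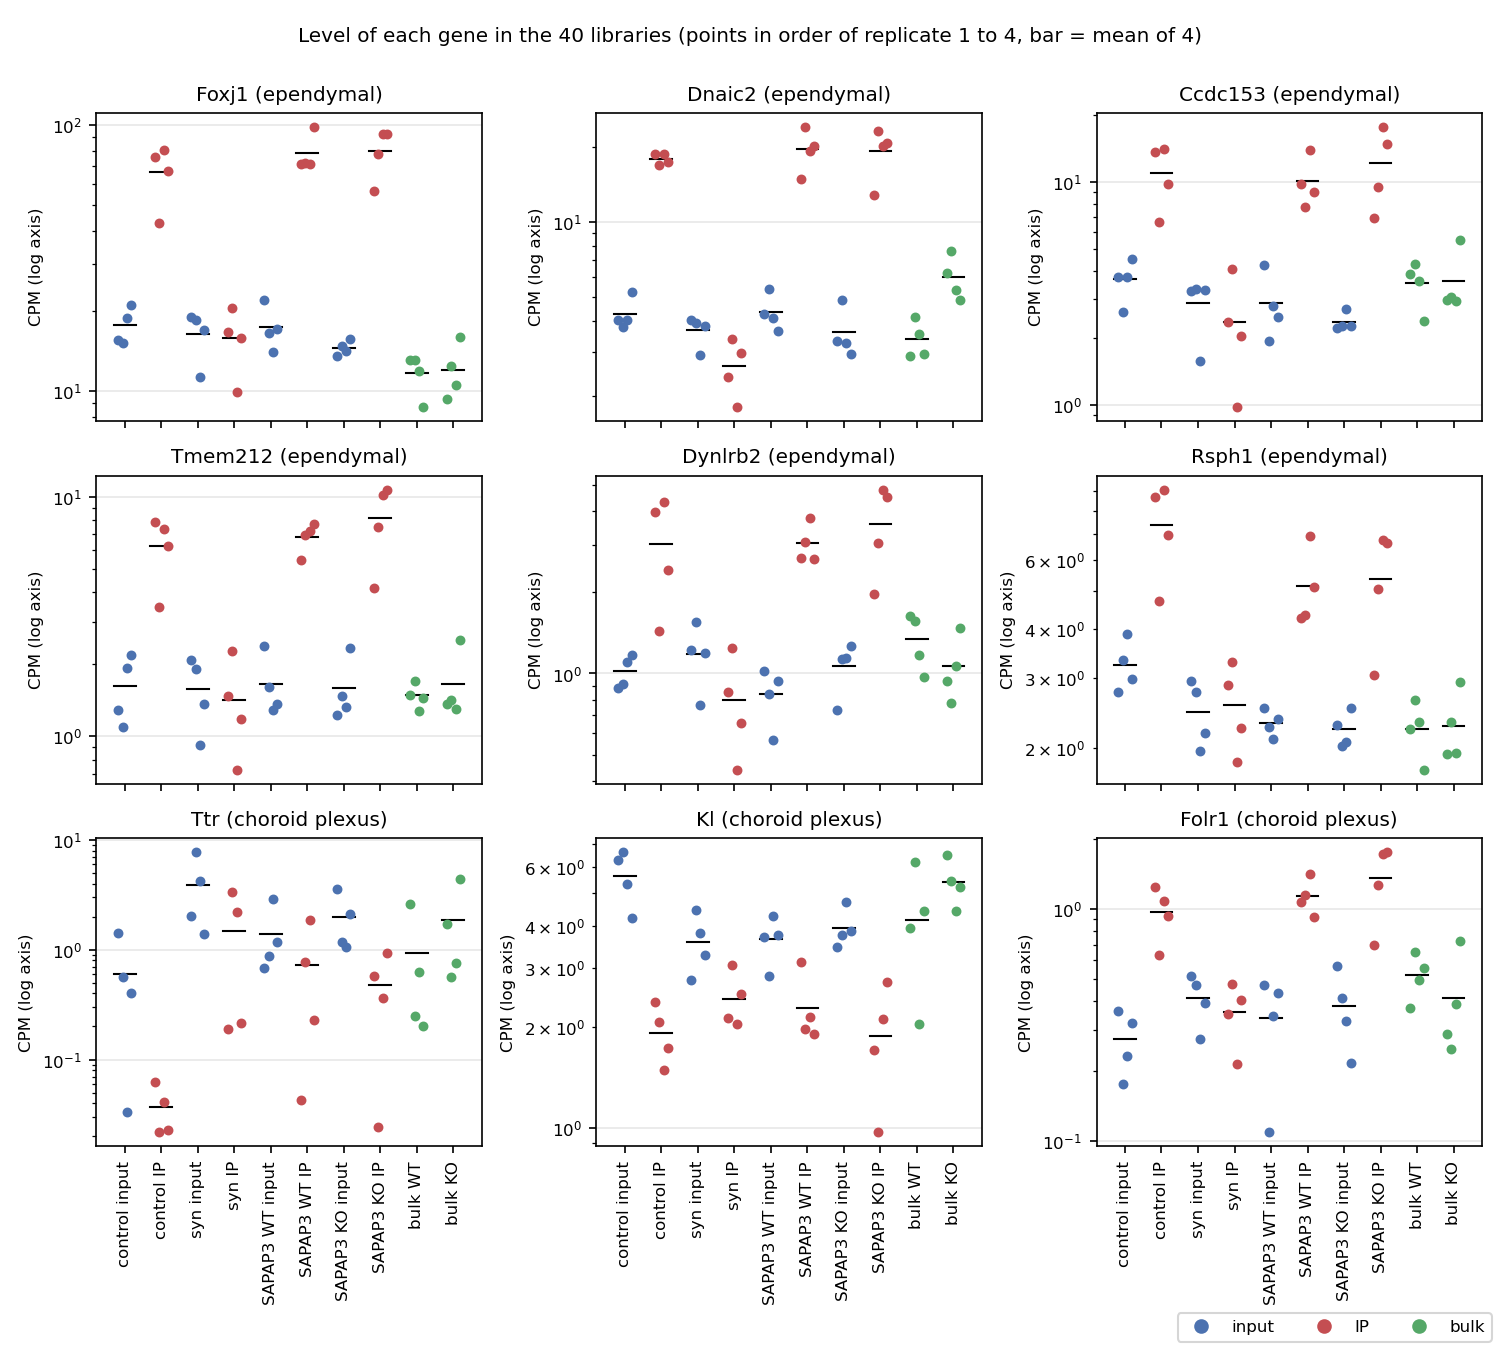
Level of each of the 9 genes in the 40 libraries, in CPM on a log axis, with 1 point a library in the order of replicates 1 to 4, coloured as input, IP or bulk, and a bar at the mean of the 4. For the ependymal genes and Folr1 the control and SAPAP3 IP points sit above the inputs of the same group, and for Foxj1 they reach 98.5 CPM, while syn IP points lie among the inputs. Ttr points are the most scattered within groups, from 0.0333 to 1.41 CPM in control input.

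Dnaic2 (chr11:114721341-114757889), an intermediate chain of the outer dynein arm, lay at 4.02, 3.77, 4.03 and 5.22 CPM in control input and at 18.7, 16.9, 18.8 and 17.4 CPM in control IP. These IP libraries were the most even of any ependymal member, with an SD of 0.955 CPM around 17.9. The means in SAPAP3 WT were 4.35 ± 0.737 CPM in input and 19.6 ± 3.76 CPM in IP, and in SAPAP3 KO 3.60 ± 0.847 and 19.2 ± 4.46 CPM. In the syn cohort it was lower in IP than in input on average, at 2.63 ± 0.696 against 3.66 ± 0.512 CPM, but the ranges overlapped. Its ratio of IP over the input of the same number was under 1 in 4 of 4 syn pairs, between 0.588 and 0.867. These ratios are in CPM, and no share over all genes was computed for them. Total counts alone moved the median gene by -0.205 on the log2 scale in the syn comparison. With edgeR's scaling the log2 fold change of Dnaic2 there was -0.278 ± 0.185 (SE).

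Rsph1 (chr17:31255019-31277296), a subunit of the radial spoke head, showed the smallest ratio of IP over input of the 6 in the control and SAPAP3 cohorts. It lay at 2.78, 3.35, 3.90 and 3.00 CPM in control input and at 8.68, 4.73, 9.05 and 6.95 CPM in control IP. The lowest IP library was still above the highest input. SAPAP3 means were 2.31 ± 0.176 against 5.16 ± 1.22 CPM in WT and 2.23 ± 0.227 against 5.38 ± 1.72 CPM in KO. Dynlrb2 (chr8:116505015-116515915), a light chain of cytoplasmic and ciliary dynein, lay at 0.885, 0.916, 1.10 and 1.17 CPM in control input and at 3.95, 1.43, 4.30 and 2.41 CPM in control IP. Its input libraries held only 18 to 38 counts in the SAPAP3 cohort, and its means there were 0.840 ± 0.199 against 3.04 ± 0.515 CPM in WT and 1.07 ± 0.231 against 3.58 ± 1.32 CPM in KO.

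Ccdc153 (chr9:44240677-44247306) and Tmem212 (chr3:27866065-27896391) are ependymal markers from single-cell studies. Ccdc153 lay at 3.74, 2.61, 3.77 and 4.54 CPM in control input and at 13.7, 6.64, 14.1 and 9.81 CPM in control IP. Tmem212 lay at 1.29, 1.09, 1.93 and 2.19 CPM in control input and at 7.86, 3.47, 7.30 and 6.22 CPM in control IP. Both separated the fractions completely, as they did in SAPAP3 WT, where the IP means were 10.1 ± 2.70 and 6.81 ± 0.970 CPM, and in SAPAP3 KO, where they were 12.2 ± 4.92 and 8.12 ± 3.00 CPM.

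Expressed as fold changes by edgeR, the 6 ependymal members were 2.62-fold (Rsph1) to 4.92-fold (Dnaic2) higher in control IP than in control input. The log2 fold changes were 2.14 ± 0.18 (SE, 4 against 4 libraries) for Foxj1, 2.30 ± 0.09 for Dnaic2, 1.82 ± 0.24 for Ccdc153, 2.16 ± 0.28 for Tmem212, 1.79 ± 0.33 for Dynlrb2 and 1.39 ± 0.20 for Rsph1. In SAPAP3 WT they ran from 1.33 ± 0.18 (Rsph1) to 2.35 ± 0.15 (Foxj1), and in SAPAP3 KO from 1.48 ± 0.23 (Rsph1) to 2.66 ± 0.15 (Foxj1). Rsph1 was the lowest of the 6 each time. In the syn cohort they lay between -0.37 ± 0.31 (Dynlrb2) and 0.26 ± 0.20 (Rsph1), within 2 SE of 0 in each case. With Folr1, 7 of the 9 members had every IP library above every input library in the control cohort, in SAPAP3 WT and in SAPAP3 KO, as did 25.7%, 21.7% and 23.2% of all genes tested there. In the syn cohort 0 of 9 did, against 16.7% of all genes. Scaling by total counts alone moved the median gene by -0.17 to -0.22 on the log2 scale in these comparisons.

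**Figure D2:**
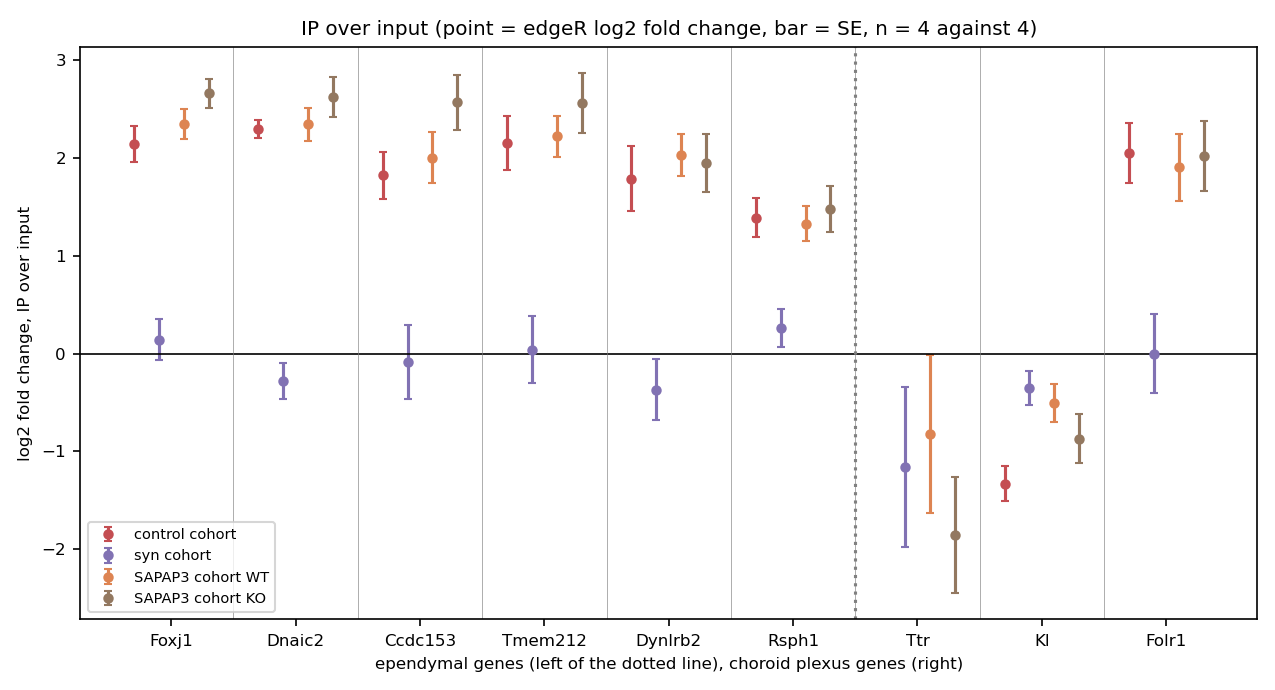
Log2 fold change of IP over input for the 9 genes in the control, syn, SAPAP3 WT and SAPAP3 KO comparisons, with points for the edgeR estimate and bars for its SE (4 against 4 libraries). The 6 ependymal genes and Folr1 lie between 1.33 and 2.66 in 3 of the comparisons and near 0 in the syn cohort, and Kl and Ttr lie below 0, with no Ttr point for the control cohort because the gene did not pass the filter on low counts.

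The choroid plexus genes did not behave as a set. Folr1 (chr7:101858331-101870788), a folate receptor that carries folate across the choroid plexus, lay at 0.362, 0.176, 0.233 and 0.324 CPM in control input and at 1.24, 0.629, 1.08 and 0.931 CPM in control IP. Its log2 fold change was 2.05 ± 0.30 in the control cohort, 1.91 ± 0.34 in SAPAP3 WT, 2.02 ± 0.36 in SAPAP3 KO and 0.00 ± 0.40 in the syn cohort, the pattern of the ependymal genes. Its counts were small, from 3 to 46 in the input and bulk libraries.

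Kl (chr5:150952607-150993817), a co-receptor for the hormone FGF23, went the other way. It lay at 6.27, 6.62, 5.33 and 4.21 CPM in control input and at 2.37, 2.06, 1.49 and 1.73 CPM in control IP. Every IP library was below every input library, as for 51.5% of all genes tested, and the log2 fold change was -1.33 ± 0.18. In SAPAP3 KO it lay at 3.45, 3.74, 4.71 and 3.85 CPM in input and at 1.70, 0.968, 2.11 and 2.71 CPM in IP. Kl and Ttr were the 2 members with this separation there, and 45.4% of all genes tested had it. In SAPAP3 WT and in the syn cohort its ranges overlapped, with log2 fold changes of -0.51 ± 0.20 and -0.36 ± 0.17.

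Ttr, on chromosome 18, varied widely between libraries of 1 group. In control input it lay at 1.41, 0.564, 0.0333 and 0.405 CPM, and in control IP at 0.0630, 0.0217, 0.0413 and 0.0227 CPM. The IP libraries held 1 to 3 counts each and the inputs 1 to 35, and the pooled ratio of IP over input was 0.0655 (95% exact interval 0.0253 to 0.143, counting error only). In syn input it lay at 2.04, 7.74, 4.22 and 1.39 CPM, and in syn IP at 0.189, 3.33, 2.22 and 0.215 CPM. Replicates 2 and 3 were the higher ones in both syn fractions. In SAPAP3 WT input it lay at 0.683, 0.873, 2.89 and 1.17 CPM, and in the IP at 0.0426, 0.776, 1.86 and 0.231 CPM. In SAPAP3 KO it lay at 3.58, 1.17, 1.05 and 2.12 CPM in input and at 0.576, 0.0242, 0.363 and 0.937 CPM in IP. The ratio of IP over the input of the same number was under 1 in every syn and SAPAP3 pair. It was also under 1 in the control pairs other than replicate 3, where 1 count stood in the input. These ratios are in CPM, and no share over all genes was computed for them. The log2 fold changes of Ttr were -1.17 ± 0.82 (syn), -0.83 ± 0.81 (SAPAP3 WT) and -1.86 ± 0.60 (SAPAP3 KO). The SAPAP3 WT value moved to -1.89 without IP replicate 3.

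Over the 24 input and bulk libraries Ttr ran from 0.0333 to 7.74 CPM, a 232-fold range. The lowest value was 1 count in control input replicate 3, and the next lowest was 0.2005 CPM in bulk WT replicate 4. The other 8 members ran over 2.22-fold (Rsph1) to 6.68-fold (Folr1). The pooled SD within groups, on log2(CPM + 0.5), was 0.849 for Ttr, at the 99.9th percentile of the 14147 genes averaging 1 CPM or more, and 0.185 (Rsph1) to 0.345 (Ccdc153) for the ependymal members, between the 74.8th and 94.9th percentiles. The median gene had 0.121. All 9 members therefore varied more between libraries of 1 group than the median gene did. The genes compared were not matched for level, and Folr1, with a mean of 0.39 CPM, lay below their cutoff. The ratio of Ttr to Kl in CPM ran from 0.00625 to 1.74 over these libraries, 279-fold from lowest to highest. Its lowest value was also from control input replicate 3, and the next lowest was 0.04 in bulk WT replicate 2. The share of Foxj1 in the summed level of the 6 ependymal members lay between 40.9% and 61.4%. Foxj1 is part of that sum, which bounds its share, so these ranges are not comparable.

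The levels of other genes of each epithelium were looked up beside the members. Of 25 further choroid plexus genes, 10 averaged 1 CPM or more over the 24 input and bulk libraries and 13 (52.0%) stayed under 1 CPM in all of them, among them Kcne2, a potassium channel subunit of the epithelium, with a mean of 0.0330 CPM. Of 58 further ependymal and motile cilium genes, 42 (72.4%) averaged 1 CPM or more there and 6 stayed under 1 CPM throughout. Over all 24060 genes, 58.8% averaged 1 CPM or more and 37.6% stayed under it in every library, so the choroid plexus list lay below the whole table and the ependymal list above it. These shares do not test which cells the reads came from. Kl and Folr1 are described by name and not as a measure of choroid plexus.

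The 58 further ependymal genes were tested between fractions with edgeR's quasi-likelihood test, with a call at a Benjamini-Hochberg adjusted p under 0.05 and a log2 fold change beyond 1 in either direction. They too were listed with earlier results of these data known. In the control cohort 42 of 58 were higher in IP and 3 were lower, where 13.4% of all genes were called higher and 13.5% lower. In SAPAP3 WT 42 of 57 were higher and 0 lower, against 10.9% and 12.1% of all genes. In SAPAP3 KO 43 of 57 were higher and 1 lower, against 12.3% and 11.5%. Their median log2 fold changes were 1.60, 1.56 and 1.75, and those of all genes tested were -0.02, -0.03 and -0.0036.

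By role, all 6 genes of the radial spoke and central pair (Hydin, Rsph4a, Rsph9, Spag16, Spag17 and Spef2) were called higher in these 3 IPs. Of the outer dynein arm genes, 4 of 5 were higher each time, Dnal1 being the exception. Of the inner arm genes, 3 of 4 were higher each time and Dnah2 was not. Of the dynein docking and ruler genes 5 of 8 were higher in the control cohort and 4 of 8 in both SAPAP3 genotypes. In the mixed list of other cilium genes 18 of 22 were higher in the control cohort and Tekt2, a tektin, was lower. The dynein assembly factors, which act in the cytoplasm, had 1 of 5 called higher in the control cohort (Dnaaf1), 1 of 5 in SAPAP3 WT and 2 of 5 in SAPAP3 KO. Among the multiciliation factors 5 of 8 were higher in each, namely Ccdc67, Gmnc, Myb, Rfx2 and Trp73. Gmnc in SAPAP3 WT was not called without IP replicate 3, at 0.97. Mcidas and Ccno, which like Gmnc act early in multiciliation, were called lower in the control cohort, and Mcidas also in SAPAP3 KO.

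Single genes of the list reached larger differences than the members. Wdr16 had log2 fold changes of 2.82 ± 0.34 in the control cohort (adjusted p = 1.4e-05), 2.65 ± 0.19 in SAPAP3 WT (adjusted p = 3e-06) and 2.82 ± 0.25 in SAPAP3 KO (adjusted p = 2.5e-06), by the quasi-likelihood test of edgeR with p-values adjusted by Benjamini-Hochberg. Tekt1, a tektin of the ciliary microtubules, had 2.49 ± 0.17, 2.38 ± 0.16 and 2.69 ± 0.24 in the same order, and Dnali1, a light intermediate chain of the inner arm, had 2.47 ± 0.20, 2.45 ± 0.22 and 3.01 ± 0.29. Gmnc, which starts the multiciliated fate, had 2.83 ± 0.43 in the control cohort on a mean of only 0.0926 CPM in input. The 6 most abundant genes of the list were mixed. Rfx3, at a mean of 119.6 CPM in the input and bulk libraries, had 0.60 ± 0.06 (adjusted p = 2.8e-06 by edgeR, within the fold limit), 0.06 ± 0.10 and 0.21 ± 0.07, and Dnal1, at 113.9 CPM, had -0.38 ± 0.04, -0.72 ± 0.07 and -0.69 ± 0.06. Drc1 at 20.5 CPM, Ccdc39 at 14.8 CPM and Lrrc6 at 8.77 CPM were not called either, and Dnah5, a heavy chain of the outer arm at 8.91 CPM, was called higher each time, with 2.12 ± 0.17, 1.41 ± 0.21 and 1.59 ± 0.12.

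In the syn cohort 0 of 57 were called higher and 2 lower, where 0.42% of all genes were called higher and 15.8% lower. At an unadjusted p under 0.05 there were 23 of 57, and DESeq2 and limma-voom called 2 each. The 2 lower genes were Wdr52, at -1.41 ± 0.16, and Dnaic1, an intermediate chain of the outer arm, at -1.05 ± 0.16. Dnaic1 came within the fold limit, and was no longer called, without syn input replicate 2 (-0.99), syn IP replicate 1 (-0.99) or syn IP replicate 4 (-0.98). The difference of IP over input between the control and syn cohorts was tested as an interaction, and 42 of 58 genes had the larger ratio in the control cohort and 3 the smaller, against 19.1% and 8.27% of all genes. Cohort and RiboTag promoter cannot be told apart in that comparison. The summed cortical glutamatergic markers also differed between the cohorts, at 79.4 to 117 CPM in control input and 734 to 998 CPM in syn input. Their part in the interaction was not tested.

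**Figure D3:**
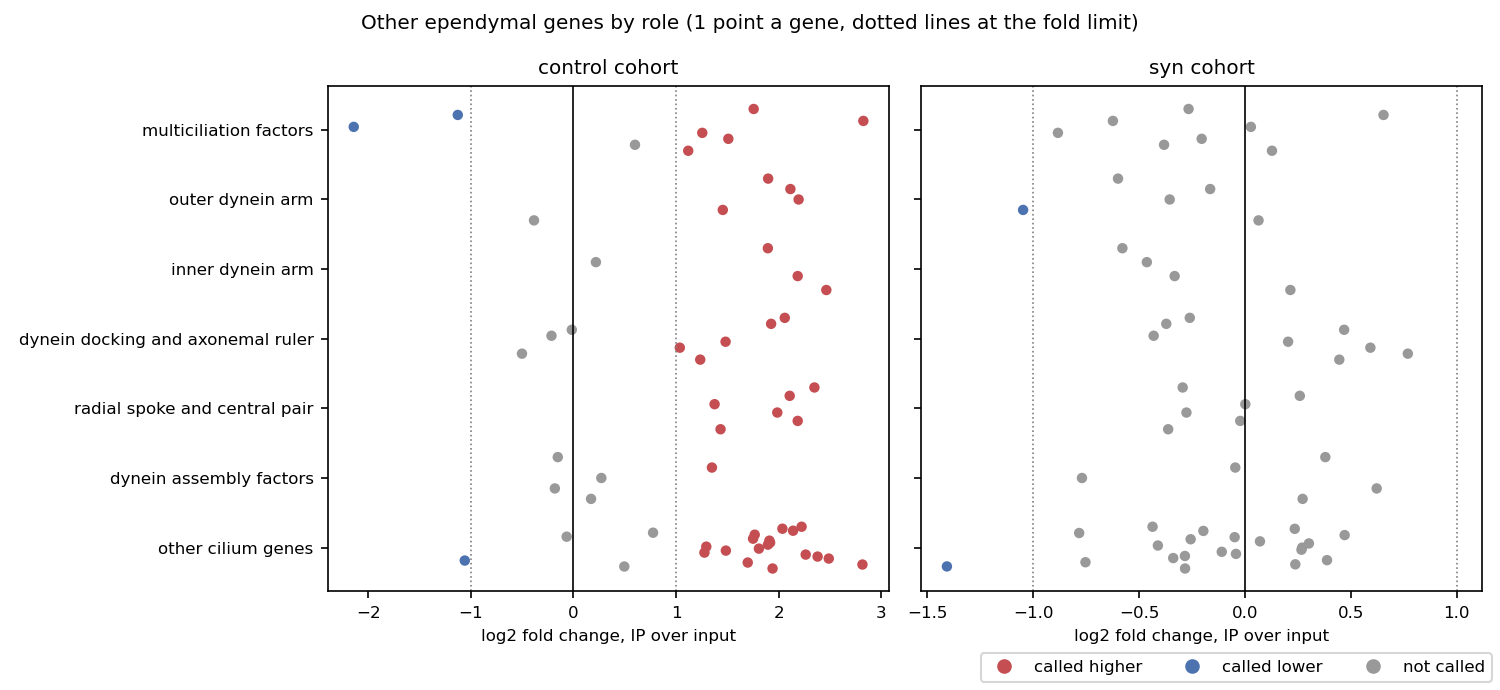
Log2 fold change of IP over input for the other ependymal genes, 1 point a gene, arranged by role, in the control cohort (left) and the syn cohort (right), with dotted lines at the fold limit and colours for the call by edgeR. In the control cohort all 6 radial spoke and central pair genes are called higher and 4 of 5 dynein assembly factors are not called, and in the syn cohort no gene is called higher.

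Of the 25 further choroid plexus genes, 17 passed the filter on low counts in the control cohort, and 7 were called higher in IP and 4 lower, where 13.4% and 13.5% of all genes were. In SAPAP3 WT the counts were 7 higher and 2 lower of 17, against 10.9% and 12.1% of all genes, and in SAPAP3 KO they were 6 and 2 of 17, against 12.3% and 11.5%, so that the lower counts in both were near the background. The syn cohort had 0 and 7 of 18, against 0.42% and 15.8%. The genes called higher in the control IP were Msx1 and Otx2, which are transcription factors, the water channel Aqp1, and 1500015O10Rik, Calml4, Steap1 and Tmem72. Msx1 had a log2 fold change of 2.02 ± 0.13 in the control cohort and -1.36 ± 0.15 in the syn cohort. Slc13a4, a sulphate transporter, was called lower in all 4 cohort comparisons, from -1.93 ± 0.40 in SAPAP3 KO to -4.47 ± 0.40 in the syn cohort, and Igf2 was too, from -1.54 ± 0.34 in SAPAP3 KO to -3.68 ± 0.14 in the syn cohort. Enpp2, at a mean of 298.8 CPM the most abundant of the list and also a known oligodendrocyte gene, was called higher in SAPAP3 WT (1.13 ± 0.13) and KO (1.20 ± 0.10), but not with scaling by total counts alone, where Enpp2 was at 0.96 and 0.99. Clic6 was called lower in the control cohort at -1.17 ± 0.12, and Car12 was called in none of the 4, though with total counts alone Car12 reached -1.06 in the control cohort. Prlr was called in none of the 4 either, except in the syn cohort without IP replicate 2 (-1.24). Kcnj13, at -3.33 ± 0.69 in the syn cohort, passed the filter there but not in the other 3.

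Other cell type markers moved in the same IPs, and their part in the values of the members was not tested. The summed level of the 10 astrocyte markers was 3608 to 3761 CPM in control input and 30310 to 33810 CPM in control IP, and none of the 10 was at 0 in any group. Microglial markers were called lower in all 4 comparisons, 10 of 10 each, with summed levels of 886 to 1096 CPM in control input and 52.0 to 58.9 CPM in control IP. Of 7 fibroblast genes of the meninges and choroid stroma, 6 were called lower in the control cohort and 7 in the syn cohort. Oligodendrocyte markers had a median log2 fold change of -0.16 in the control cohort, -1.79 in the syn cohort and 0.75 and 0.77 in SAPAP3 WT and KO, where 4 of 10 were called higher. Of 8 genes of subventricular progenitors and neuroblasts, cells that lie under the ependyma, 2 were called higher and 2 lower in the control cohort, with a median of -0.12. Of all genes tested, 13.4% were called higher and 13.5% lower in the control cohort, and 0.42% and 15.8% in the syn cohort. The shares were 10.9% and 12.1% in SAPAP3 WT and 12.3% and 11.5% in SAPAP3 KO. Counts of 2 of 8 are not far from the control shares.

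Within groups the ependymal members went up and down together, with 1 exception. Deviations from the group mean were compared over the 24 input and bulk libraries, which share the tissue piece and the library total within a library, so the correlations are given without p-values. For the 10 pairs among Foxj1, Ccdc153, Tmem212, Dynlrb2 and Rsph1, Pearson's r ran from 0.582 to 0.847, with a median of 0.720. Dnaic2 stood apart, with r of 0.0497 to 0.268 to the other 5. Folr1 had a median r of 0.324 to the 6, highest with Ccdc153 at 0.627, and Ttr and Kl had medians of 0.0439 and -0.0728. The 3 choroid plexus members had r of 0.0593 to 0.199 among themselves.

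Single libraries could be named for this. In the syn cohort replicate 3 was the lowest of the 4 for all 6 ependymal members in input and again in IP, for example 1.57 CPM of Ccdc153 in input against 3.26 to 3.33 CPM in the other 3. The lowest library was control IP replicate 2 for 6 of 6 and SAPAP3 KO IP replicate 1 for 6 of 6. In bulk KO, replicate 4 was the highest for 5 of 6, with 15.9 CPM of Foxj1 against 9.30 to 12.4 CPM in the others.

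The genes outside the members that followed the mean deviation of the 6 ependymal members most closely over the same 24 libraries were Cd9 (Pearson's r 0.942), Kat2b (0.898), Klk6 (0.896), Tm7sf3 (0.883), Cd82 (0.882), Acot6 (0.867), Rarres2 (0.866), Dbi (0.865), Lrrc23 (0.862) and Ptma (0.860), out of 14139 genes compared. Lrrc23 is a radial spoke gene and the only one of the 10 in the ependymal list. Spearman's ranking gave 8 of the same 10. Averaged by class, the deviations had r of 0.845 with the other ependymal genes, 0.767 with microglial markers, 0.723 with oligodendrocyte markers, 0.562 with endothelial markers, 0.523 with neuron markers, 0.426 with subventricular genes, 0.231 with astrocyte markers, -0.105 with the other choroid plexus genes, -0.433 with fibroblast genes and -0.486 with markers of cortical glutamatergic neurons. In syn input, replicate 3 was the lowest library also for the microglial sum (730 CPM against 983 to 1161) and the oligodendrocyte sum (5386 CPM against 6757 to 7211). For the 3 choroid plexus members the closest genes were Ddc (0.746), Trak2 (0.725), Pdgfra (0.723), Smpd2 (0.693), 2310022B05Rik (0.685), Agt (0.681), Tshz2 (0.672), Tekt4 (0.671), Pcbd1 (0.656) and Ndc1 (0.641), with Tekt4 a tektin of the ependymal list and 6 of the 10 shared with Spearman's ranking.

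**Figure D4:**
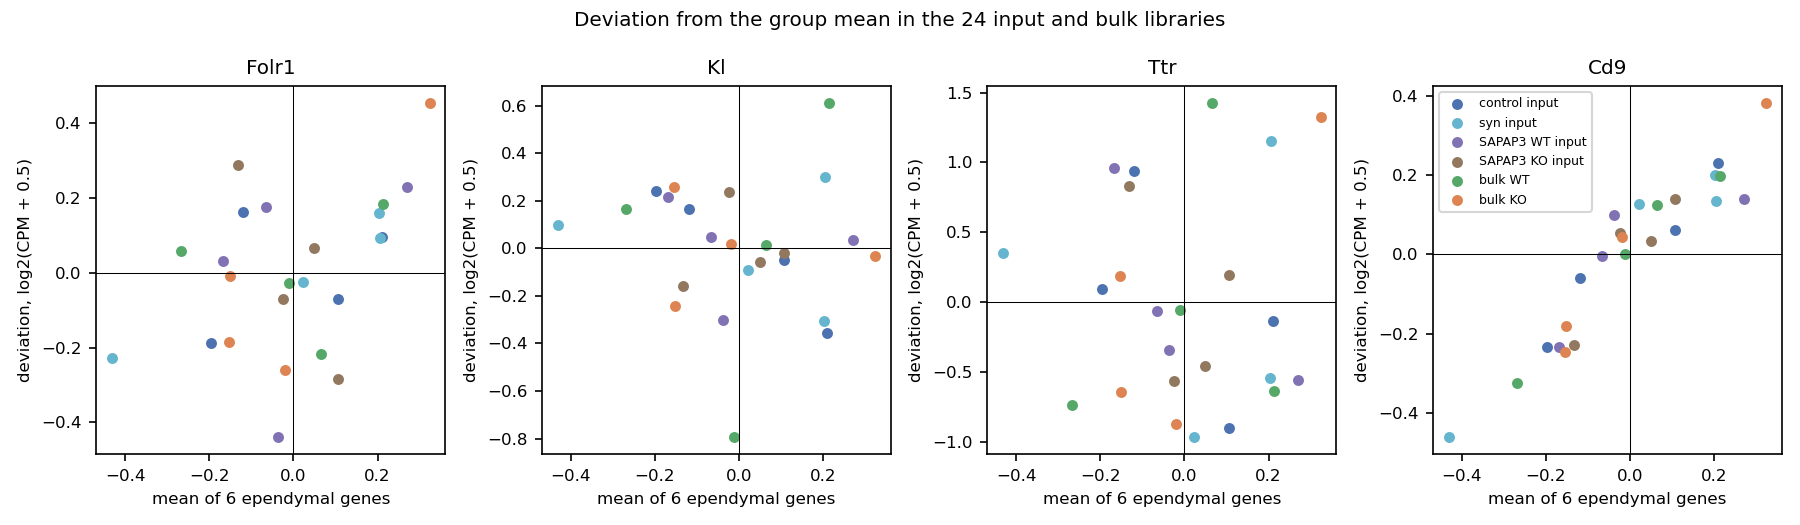
Deviation of Folr1, Kl, Ttr and Cd9 from the group mean, on log2(CPM + 0.5), against the mean deviation of the 6 ependymal members, 1 point for each of the 24 input and bulk libraries and 1 colour a group. Cd9 follows the ependymal mean (Pearson's r 0.942), and Kl and Ttr are spread without a trend.

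The KO and WT mice of the SAPAP3 cohort, and the bulk libraries, ask whether loss of SAPAP3 came with a change in these genes. In input the member log2 fold changes of KO over WT lay between -0.24 ± 0.18 (Dnaic2) and 0.49 ± 0.52 (Ttr), and in IP between -0.57 ± 0.90 (Ttr) and 0.29 ± 0.28 (Ccdc153). The ranges of the genotypes overlapped for all 9 members in both fractions, where 4.14% of all genes tested did not overlap in input and 1.44% did not in IP. SAPAP3 WT input replicate 1 stood apart in cortical markers (85.4 CPM against 598 to 767 in the other WT and 722 to 879 in the KO inputs). Leaving out each library in turn kept Foxj1 between -0.31 and -0.11 in input. Tmem212 ran from -0.26 to 0.18, Rsph1 from -0.08 to 0.01 and Folr1 from -0.08 to 0.39, so their sign changed. The other members kept their sign, with Ttr between 0.03 and 1.14.

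In bulk striatum Dnaic2 was the only member whose genotypes did not overlap, at 2.89, 4.16, 3.55 and 2.93 CPM in WT and 6.22, 7.65, 5.31 and 4.85 CPM in KO. All 4 KO libraries were higher, by a log2 fold change of 0.81 ± 0.17, and 3.33% of all genes tested did not overlap in either direction. It was 0.67 to 0.91 on leaving out each library in turn and 0.72 without both libraries labelled JS9195. The summed cortical markers lay at 1047, 266, 221 and 844 CPM in the WT bulk libraries and at 794, 646, 871 and 463 CPM in KO. WT replicates 2 and 3, the lowest WT libraries in cortical markers, were the highest WT libraries in Dnaic2. In KO the order differed, with replicate 4 the lowest in cortical markers and also in Dnaic2. The part of the cortical markers in the Dnaic2 difference was not tested. In the SAPAP3 inputs the same gene was at -0.24 ± 0.18, and in the IPs at -0.01 ± 0.19. The other 5 ependymal members in bulk lay between -0.36 ± 0.24 (Dynlrb2) and 0.13 ± 0.22 (Tmem212).

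Among the choroid plexus members in bulk, Ttr lay at 2.63, 0.248, 0.622 and 0.201 CPM in WT and at 1.71, 0.563, 0.750 and 4.39 CPM in KO. The groups overlapped, and the log2 fold change of 0.93 ± 0.87 became 2.38 without WT replicate 1. Kl lay at 3.94, 6.21, 2.03 and 4.43 CPM in WT and at 6.48, 5.42, 4.44 and 5.21 CPM in KO, and Folr1 at 0.372, 0.652, 0.494 and 0.555 CPM and at 0.288, 0.249, 0.391 and 0.729 CPM. Both overlapped.

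**Figure D5:**
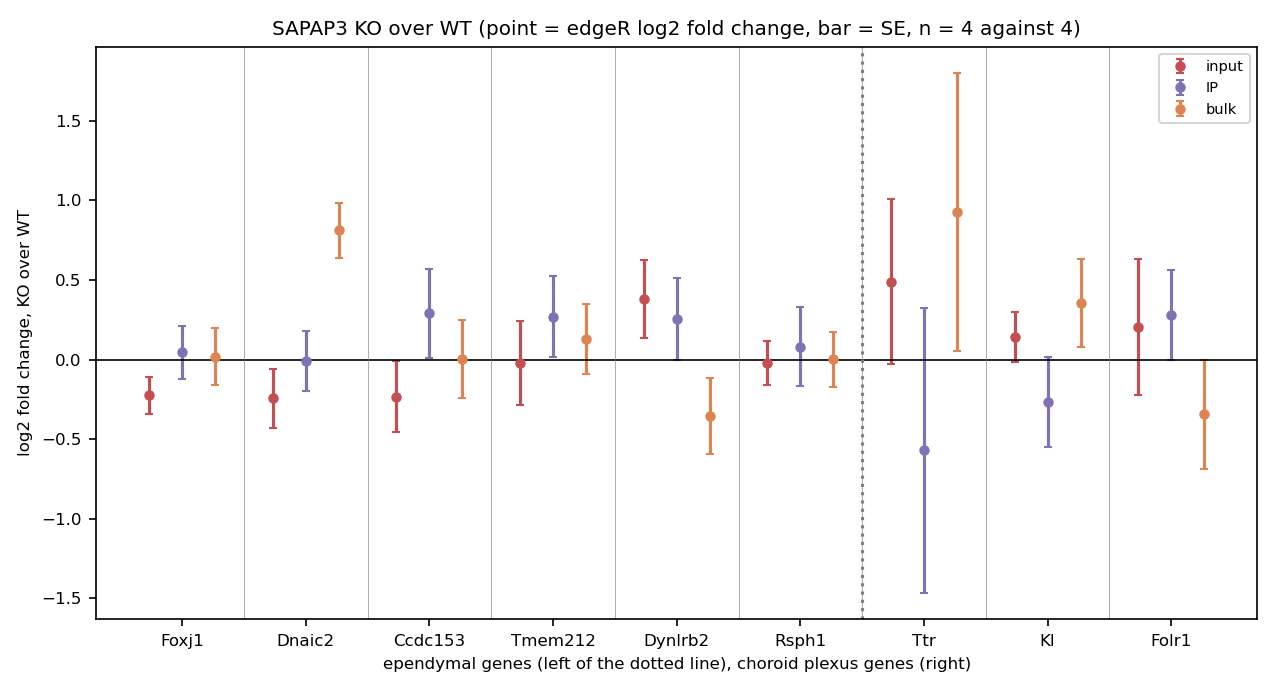
Log2 fold change of SAPAP3 KO over WT for the 9 genes in input, IP and bulk striatum, with points for the edgeR estimate and bars for its SE (4 against 4 libraries). Dnaic2 in bulk, at 0.81, stands above the other ependymal genes, and Ttr has the widest bars.

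Of the further ependymal genes, edgeR's quasi-likelihood test called 0 of 57 between genotypes at an adjusted p under 0.05 in input, in IP and in bulk, where 0.00641%, 0.0263% and 0.0% of all genes were called. At an unadjusted p under 0.05 there were 3, 2 and 2 of 57, and DESeq2 and limma-voom called 0 in each. The medians of the list were -0.03, 0.17 and 0.09 on the log2 scale. In bulk edgeR and limma-voom called 0 of 16020 genes, so Dlgap3, whose genotypes did not overlap there, was not called either. Their counts of 0 in bulk therefore cannot show that either list was unchanged. With so few of all genes called in input and IP, the counts of 0 there cannot show it either. Of the further choroid plexus genes 0 of 15, 0 of 19 and 0 of 17 were called, with 0, 1 and 1 at an unadjusted p under 0.05, and the other tools called 0. No difference of the KO effect between IP and input or between bulk and input was called for any gene of either list. Among the ependymal genes that was 0 of 58 in both, with 1 and 4 at an unadjusted p under 0.05. DESeq2 and limma-voom also called 0 of either list. As 0.0% of all genes were called in both of these interactions, these counts cannot show that the KO effects were equal.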

How the data were processed

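Raw counts per gene symbol, 1 column a library and not normalized, were deposited by the authors after alignment with STAR to mm10. HTSeq is named among the tools in the submitters' processing notes, and the annotation, strand setting and treatment of multiply aligned reads are not given in the sources used here, so counts of overlapping genes are uncertain. The labels and the study's methods name different library kits and sequencers. All 40 columns were used. The members and the lists of further genes were chosen with earlier results of these data known.

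CPM were computed from the deposited counts with library totals, and FPKM with merged exon lengths of RefSeq GRCm38.p6. Fold changes, SE and adjusted p-values came from edgeR 4.0.16 (filterByExpr, TMM, glmQLFit and glmQLFTest, Benjamini-Hochberg over all genes tested) in R 4.3.3, with only the compared groups in a fit. Calls needed an adjusted p under 0.05, between fractions also with a log2 fold change above 1 or below -1, limits taken from the study. Within-group deviations used log2(CPM + 0.5) and genes averaging 1 CPM or more. DESeq2 1.42.0, limma-voom (limma 3.58.1), other scaling, no filter and leaving out each library were alternatives, with total-count scaling and bulk without the libraries of the shared animal label added after seeing the data, and the scripts were tested on simulated data. Of 62 and 25 entries of the further ependymal and choroid plexus lists, 4 ependymal entries matched no row. Named from each list were the 6 genes with the highest mean CPM over input and bulk libraries and up to 3 called genes with the largest log2 fold change per comparison. Genes named for a small count of calls or to complete a role group (Mcidas, Ccno, Dnah2, Dnaaf1, Tekt2, Otx2, Tmem72, Kcne2 and those of the radial spoke and central pair and the multiciliation factors) were chosen after their values were seen. Nothing but the sample labels shows that libraries of a group came from separate animals, so p-values measure the spread between these libraries.

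Same-numbered IP and input libraries deviated together in every cohort (r of own pairs 0.258 to 0.791, and 4 of 4 libraries correlated best with their own number in each), the numbers being the animal labels in the control and SAPAP3 cohorts and title numbers in the syn cohort. The replicate block was therefore run as the paired alternative.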

Additional observations from a re-analysis of the deposited data

Results flagged for a closer look

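Among the 90 sets of 4 libraries (9 members in 10 groups), 5 held a library far from the other 3 by Dixon's criterion, and chance gives about 1 in 20. Foxj1 was 98.5 CPM in SAPAP3 WT IP replicate 4, against 71.2 to 72.3 CPM in the others. Ccdc153 was 1.57 CPM in syn input replicate 3 (others 3.26 to 3.33), 2.70 CPM in SAPAP3 KO input replicate 3 (others 2.22 to 2.27) and 5.53 CPM in bulk KO replicate 4 (others 2.92 to 3.05). Tmem212 was 2.52 CPM in that same bulk KO replicate 4 (others 1.30 to 1.43).

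For 21 named genes of the further lists the log2 ratio of IP over input differed between the control and syn cohorts, by an interaction term in edgeR (quasi-likelihood, p-values adjusted over all genes by Benjamini-Hochberg). A positive value means a larger ratio in the control cohort, and cohort and RiboTag promoter cannot be told apart. The inputs of these cohorts also differed in cortical markers, as given above. Among the cilium genes the difference was 3.46 ± 0.50 (SE) for Gmnc, 2.72 for Sntn, 2.66 for 1700009P17Rik, 2.58 for Wdr16, 2.51 for Dnaic1, 2.28 for Dnah5, 2.25 for Dnali1, 2.10 for Tekt1 and 1.91 for Wdr52. Drc1, which is not called within either cohort, was the exception among these at -1.27 ± 0.09. Among the choroid plexus genes it was 4.40 ± 1.33 for Kcnj13, which held 0 to 2 counts in each control input library and 1 to 5 in each control IP library, 3.95 for Aqp1, 3.38 for Msx1, 3.21 for Steap1, 2.48 for 1500015O10Rik, 2.07 for Slc13a4 (1.99 and not called with limma-voom, adjusted p = 0.075), 2.04 for Calml4, 1.86 for Igf2 and 1.33 for Enpp2, and it was negative for Clic6 at -1.52 and Car12 at -1.46. Igf2 and Slc13a4 were lower in IP in both cohorts, and less so in the control cohort.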

How the results depend on the processing

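The counts of called genes of the 2 further lists stayed within 1.5 times their value under each alternative run, except the syn ependymal count of 2, which ran from 2 to 4 on leaving out each library (4 without syn input replicate 3 and 4 without syn IP replicate 2). The replicate block gave 45, 2, 42 and 44 ependymal and 11, 7, 9 and 8 choroid plexus genes in the control, syn, SAPAP3 WT and SAPAP3 KO comparisons of IP and input, the same counts as without it. No called value changed sign. Among the calls of single named genes that were lost, Gmnc was not called in SAPAP3 KO under limma-voom (adjusted p = 0.072) nor Aqp1 in SAPAP3 WT (adjusted p = 0.074), where Aqp1 was also lost on leaving out each of 5 single libraries, and the difference of Slc13a4 between control and syn cohorts was not called under limma-voom (adjusted p = 0.075). Gmnc in SAPAP3 WT was 0.97, within the fold limit, without IP replicate 3. Among the members, Tmem212 in bulk was -0.14 without KO replicate 4, Ttr in the IP comparison of genotypes was 0.47 without WT replicate 3, and Folr1 in the input comparison was -0.08 without WT replicate 2. With a pseudocount of 0.1 the within-group SD of Ttr was 1.17 and that of Folr1 0.456. Ttr held 1 to 3 counts in each control IP library, and Folr1 held 3 to 46 in the input and bulk libraries. Differences between these single libraries are limited by counting for the gene named. Ttr held more counts elsewhere, for example 71 to 430 in syn input.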
